A study of Mus with 35 samples.

Results

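The 9 genes described here encode the catalytic subunits of protein phosphatase 1 (PP1) and 2 families of actin-linked PP1 regulators. They are Ppp1r9b (spinophilin), Ppp1r9a (neurabin), Ppp1ca, Ppp1cb and Ppp1cc (the PP1 catalytic subunits alpha, beta and gamma) and Phactr1, Phactr2, Phactr3 and Phactr4 (the phactrins). They were taken by symbol from a table of 55573 genes, where each had 1 row. The family was chosen by the TPM differences of Ppp1r9b and Phactr3 between mutant and wild-type (WT) brains given a control antisense oligonucleotide (ASO), which were already known. That comparison is therefore given as a description, with no p-value for the 9 genes.

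The libraries came from male C57BL/6J mice that carried the P209L or R206W substitution in Hnrnph2 (hemizygous) and from their WT littermates. Every mouse, controls included, had received 1 intracerebroventricular injection of 30 µg of ASO on postnatal day 2 to 4, either a control ASO or one against Hnrnph2, and no group went without an injection. P209L mice were collected at 8 weeks and at 3 weeks and R206W mice at 3 weeks, each with WT littermates, which gives 3 cohorts, 12 groups and 35 libraries. There were 3 libraries in each group but one: for P209L mice at 3 weeks with the Hnrnph2 ASO there were 2. The labels name whole brain in one place and dissected cortex in another, and do not say outright that each library was a separate animal, so p-values measure the spread between these libraries. WT libraries at 3 weeks were put in a cohort by the library numbers in their titles.

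PP1 is a serine/threonine phosphatase whose catalytic subunit finds its substrates through regulatory proteins that bind it one at a time. Spinophilin and neurabin are related scaffolds that bind actin filaments and PP1 and hold the enzyme in dendritic spines, near glutamate receptors. The phactrins bind PP1 and monomeric actin. Actin monomers also bind related motifs of the transcriptional coactivators MRTF-A and MRTF-B, partners of SRF, so phactrins belong to the same actin-sensing circuit. HNRNPH2 is an X-linked RNA-binding protein, and both substitutions lie in its nuclear localisation region.

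Values are TPM, a level corrected for transcript length and scaled to the same total in every library, so levels can be compared between genes. All 9 genes passed the filter of a mean of 1 TPM. Over the 35 libraries, mean TPM was 405 for Ppp1r9b, 277 for Ppp1ca, 190 for Ppp1cc, 155 for Ppp1cb, 146 for Phactr1, 96.7 for Phactr3, 57.1 for Ppp1r9a, 11.5 for Phactr2 and 7.4 for Phactr4. Pooled means mix the groups: in the R206W cohort Ppp1ca stood above Ppp1r9b in 3 of the 4 groups, for instance at 300 against 264 TPM in WT with the control ASO. Phactrins 2 and 4 were the least abundant. Ppp1ca varied least between libraries of a group (coefficient of variation 3.7%) and Ppp1r9a most (17.3%). TPM keeps no read total, so depth and counting error are unknown. In bulk tissue, fewer cells of a type and less RNA per cell cannot be told apart.

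Hnrnph2 itself checked the ASO labels, but not those of genotype or cohort. Its group means were 98.9 to 109 TPM in the 6 groups given the control ASO and 8.57 to 24.9 TPM in the 6 groups given the Hnrnph2 ASO. With the Hnrnph2 ASO its mean was lower in mutants than in WT in each cohort. The means were 8.57 against 17 TPM at 8 weeks, 13.9 against 18 TPM at 3 weeks and 21.3 against 24.9 TPM in the R206W cohort. The genotypes overlapped only in the R206W cohort. Marker genes of 8 brain cell types were all detected, with none at 0 in every library. Summed TPM was 727 to 1130 for 11 cortical excitatory markers and 629 to 1680 for 12 cerebellar markers in the single libraries, so cerebellar markers were detected in all of them. Phactr3 stood apart in 2 libraries given the Hnrnph2 ASO in the P209L cohort at 3 weeks, WT replicate 3 and P209L replicate 2. Results for Phactr3 are given with and without that pair.

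Among the scaffolds, Ppp1r9b (RefSeq, mm10, chr11:94991212-95006898) was far higher in mutants than in WT with the control ASO. At 8 weeks it measured 285, 313 and 397 TPM in the WT libraries and 759, 755 and 766 TPM in the P209L libraries. At 3 weeks it measured 332, 327 and 331 TPM in WT and 751, 755 and 750 TPM in P209L. In the R206W cohort it measured 267, 271 and 255 TPM in WT and 496, 491 and 627 TPM in R206W. No mutant library overlapped a WT library in any cohort, where 0.991% of all genes tested were higher without overlap in all 3. The 3 P209L libraries lay within a few TPM of each other at each age, while 1 R206W library stood above the other 2. The average over cohorts was 683 against 309 TPM, a ratio of 2.21 and a log2 fold change of 1.14 (standard error, SE, 0.0508) on the log2(TPM + 1) scale used for every fold change here. Within cohorts the log2 fold change was 1.21 for P209L at 8 weeks, 1.19 for P209L at 3 weeks and 1.01 for R206W.

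With the Hnrnph2 ASO, Ppp1r9b in the same mutant genotypes sat near the WT level. At 8 weeks it measured 281, 314 and 304 TPM in WT and 305, 360 and 334 TPM in P209L. At 3 weeks it measured 329, 316 and 362 TPM in WT and 338 and 368 TPM in P209L. In the R206W cohort it measured 266, 250 and 259 TPM in WT and 281, 286 and 278 TPM in R206W. Groups overlapped in both P209L cohorts and did not overlap in the R206W cohort, where all R206W libraries were above all WT libraries. In that cohort 5.47% of all genes tested did the same. Ordered by group mean, the 3 mutant groups with the control ASO came first (760, 752 and 538 TPM). The other 9 group means ran from 258 to 353 TPM, over cohorts whose WT levels differ. At 8 weeks the 3 other groups overlapped. At 3 weeks both treated P209L libraries lay above the WT libraries with the control ASO (327 to 332 TPM), where 14.7% of genes did so. Both WT groups of the R206W cohort (264 ± 8.18 and 258 ± 8.45 TPM, SD, n = 3) lay below the treated R206W group (282 ± 3.99 TPM, SD, n = 3). Treated R206W libraries all lay above WT with the control ASO for 8.84% of genes.

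**Figure D1:**
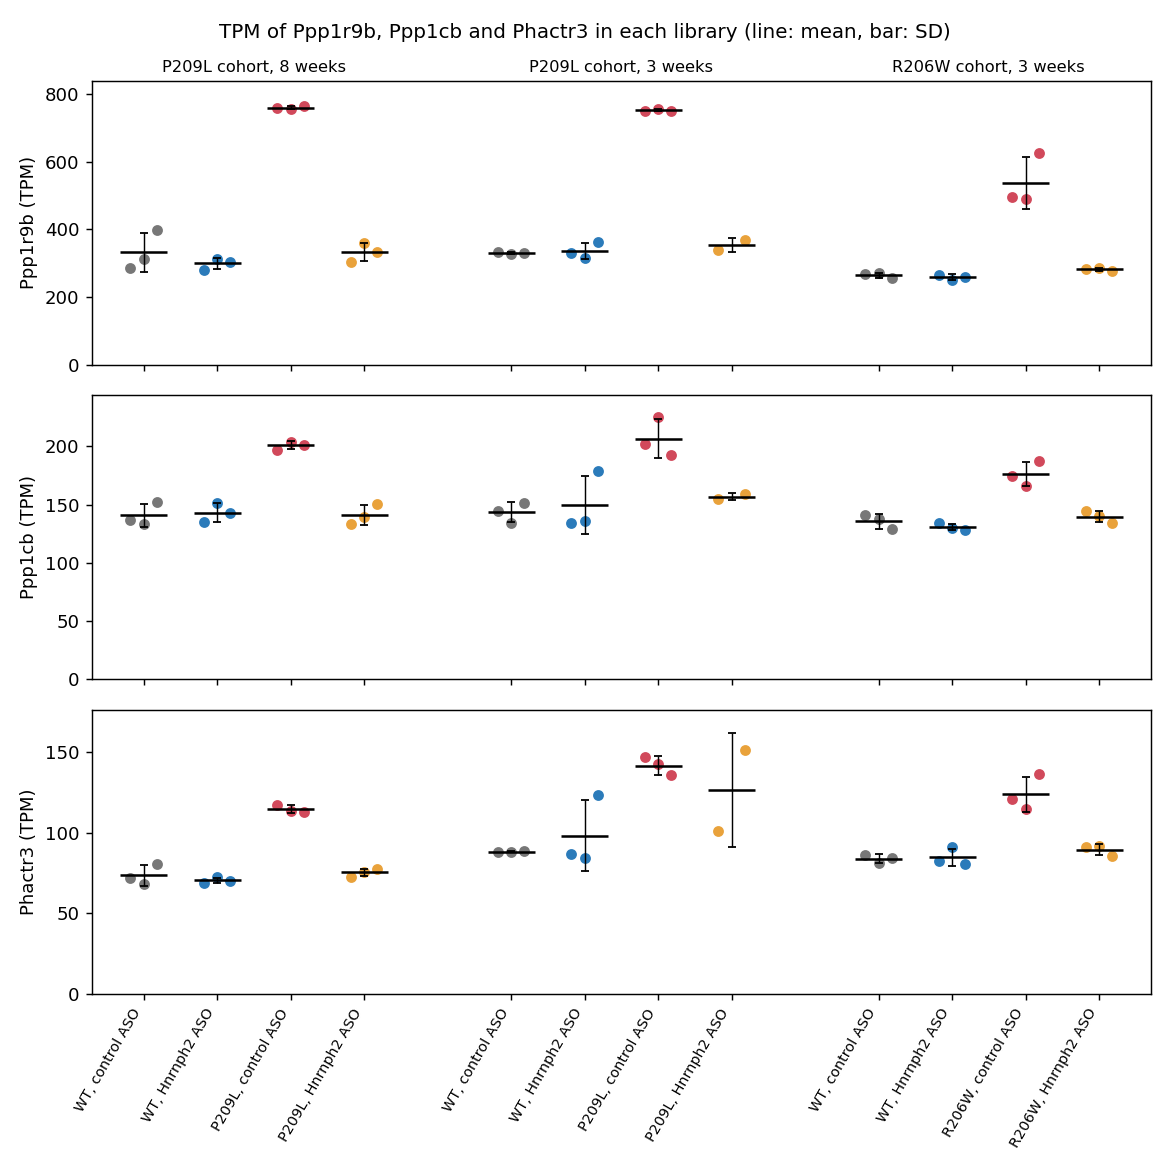
TPM (y axis) of Ppp1r9b, Ppp1cb and Phactr3 in each of the 35 libraries, by cohort, genotype and ASO; points are libraries, lines group means and bars SD. Mutant groups with the control ASO stand highest for Ppp1r9b (means 538 to 760 TPM) and Ppp1cb (176 to 207 TPM), and for Phactr3 the high libraries of 124 and 151 TPM appear in 2 groups given the Hnrnph2 ASO at 3 weeks.

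The paralog Ppp1r9a (chr6:4902872-5165661) differed less. Its average was 59.7 TPM in mutants and 55.0 TPM in WT with the control ASO, a log2 difference of 0.14 (SE 0.108, 95% interval -0.08 to 0.36). With the Hnrnph2 ASO the averages were 56.3 and 58.4 TPM. The ratio of Ppp1r9b to Ppp1r9a TPM within a library therefore averaged 11.4, 11.5 and 11.8 in the 3 mutant groups with the control ASO. It averaged 4.78 to 6.36 in the other 9 groups. Ppp1r9a was uneven within WT with the control ASO at 8 weeks, at 53.9, 40.9 and 82.5 TPM in replicates 1, 2 and 3. Phactr1 (134, 112 and 189 TPM) and the summed cortical excitatory markers (753, 727 and 992 TPM) took the same order in those libraries. The part of tissue makeup in that spread was not tested.

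Of the catalytic subunits, Ppp1cb (chr5:32458848-32493713) was the one that stood higher in mutants with the control ASO. At 8 weeks it measured 136, 134 and 152 TPM in WT and 197, 204 and 201 TPM in P209L. At 3 weeks it measured 145, 134 and 151 TPM in WT and 202, 225 and 192 TPM in P209L. In the R206W cohort it measured 141, 137 and 129 TPM in WT and 175, 166 and 187 TPM in R206W. Every mutant library lay above every WT library of its cohort, as for 0.991% of all genes tested. The averages were 194 and 140 TPM, a ratio of 1.39 and a log2 fold change of 0.47 (SE 0.0465), with 0.51, 0.52 and 0.37 in the 3 cohorts.

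With the Hnrnph2 ASO, Ppp1cb in WT measured 135, 151 and 143 TPM at 8 weeks, 134, 136 and 179 TPM at 3 weeks and 134, 130 and 128 TPM in the R206W cohort. In the mutants it measured 133, 140 and 150 TPM, 155 and 159 TPM, and 144, 140 and 134 TPM in the same order. The 2 genotypes overlapped in both P209L cohorts, and in the R206W cohort the lowest mutant library lay just above the highest WT library. In that cohort 5.47% of all genes tested were higher without overlap. The WT library at 179 TPM is the replicate 3 in which Phactr3 also stood apart.

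The other catalytic subunits differed less, and neither was called. Ppp1ca (chr19:4192174-4195419) averaged 282 TPM in mutants and 279 TPM in WT with the control ASO (log2 difference 0.02, SE 0.0283). Ppp1cc (chr5:122154967-122175273) averaged 178 and 192 TPM (-0.11, SE 0.0450). The makeup of the PP1 catalytic RNA accordingly differed. Ppp1cb was 31.8%, 31.5% and 26.0% of the summed catalytic TPM in the mutant groups with the control ASO (P209L at 8 weeks, P209L at 3 weeks, R206W). It was 24.3%, 23.5% and 21.1% in the matching WT groups and 23.9%, 24.9% and 21.8% in the mutants given the Hnrnph2 ASO. Summed catalytic TPM was 631, 655 and 677 in the control-ASO mutants and 579, 610 and 642 in their WT groups. The 3 catalytic genes are close paralogs, so reads may have been shared between them by the authors' quantification. Ppp1ca also overlaps Rad9a, and the strand setting of that quantification is not given in the sources used here.

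Spinophilin RNA was also set against the RNA of its partner enzyme. With the control ASO this ratio largely restates the Ppp1r9b difference that chose the family, so nothing further is read from it. Ppp1r9b TPM was 0.572, 0.541 and 0.412 times the summed catalytic TPM in WT with the control ASO and 1.21, 1.15 and 0.792 times in the mutants. With the Hnrnph2 ASO, it was 0.564, 0.561 and 0.440 times in the mutants and 0.514, 0.551 and 0.411 times in WT.

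**Figure D2:**
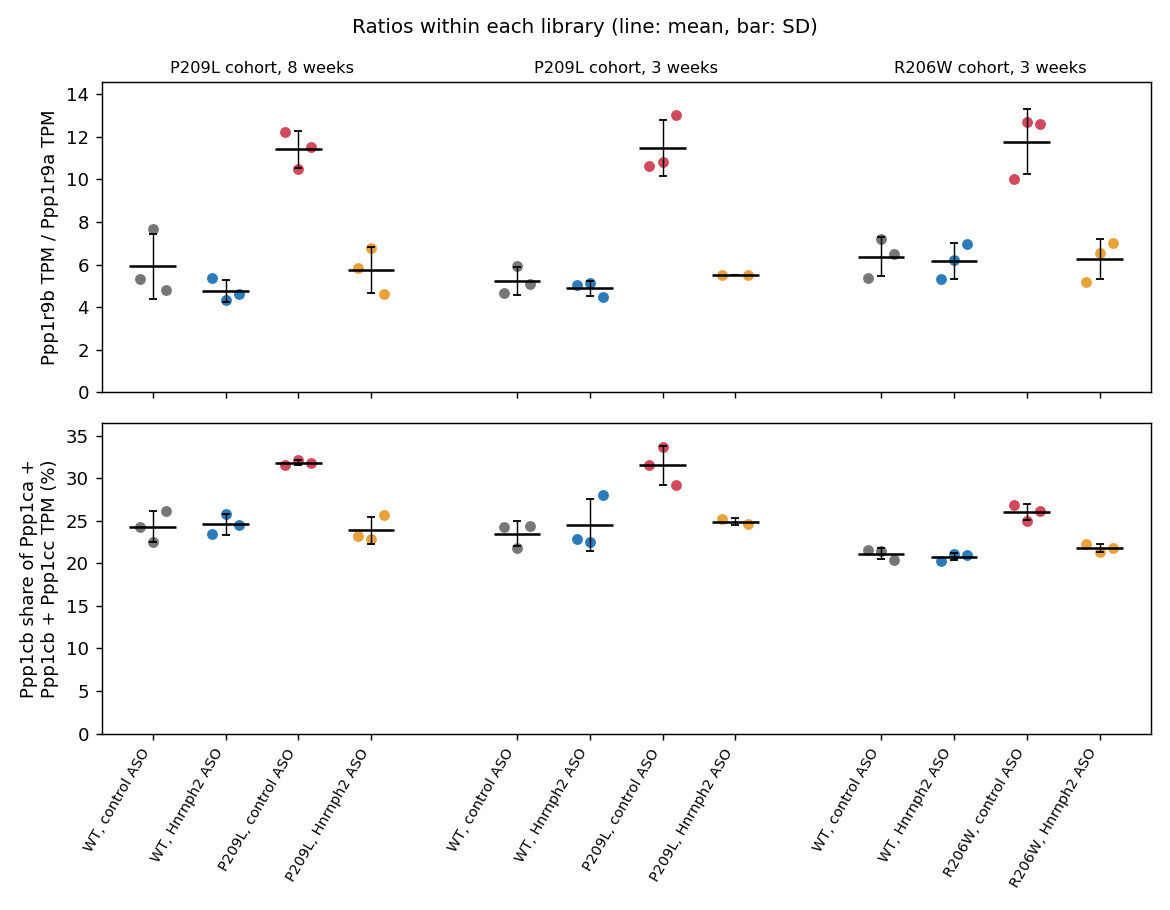
Ratio of Ppp1r9b to Ppp1r9a TPM (top) and percent of Ppp1ca + Ppp1cb + Ppp1cc TPM that is Ppp1cb (bottom) in each library, by cohort, genotype and ASO; points are libraries, lines group means and bars SD. The 3 mutant groups with the control ASO average 11.4 to 11.8 for the ratio, against 4.78 to 6.36 elsewhere.

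Among the phactrins, Phactr3 (chr2:178118975-178338492) was the one that stood higher in mutants with the control ASO. At 8 weeks it measured 72.0, 68.0 and 80.4 TPM in WT and 117, 113 and 113 TPM in P209L. At 3 weeks it measured 88.0, 88.3 and 88.5 TPM in WT and 147, 143 and 136 TPM in P209L. In the R206W cohort it measured 86.4, 81.2 and 84.3 TPM in WT and 121, 115 and 136 TPM in R206W. No mutant library overlapped a WT library of its cohort, where 0.991% of all genes tested were higher without overlap in all 3 cohorts. The averages were 127 and 81.9 TPM, a ratio of 1.55 and a log2 fold change of 0.62 (SE 0.0637), with 0.64, 0.68 and 0.55 in the 3 cohorts. Phactr3 made up 40.6%, 43.6% and 46.5% of the summed phactrin TPM in these mutant groups and 31.4%, 31.5% and 36.9% in WT.

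With the Hnrnph2 ASO, Phactr3 in WT measured 68.8, 72.2 and 70.1 TPM at 8 weeks, 86.5, 84.6 and 124 TPM at 3 weeks and 82.6, 90.9 and 80.6 TPM in the R206W cohort. In the mutants it measured 72.7, 75.9 and 77.3 TPM, 101 and 151 TPM, and 91.4, 91.8 and 85.4 TPM in the same order. The genotypes did not overlap at 8 weeks and overlapped in both cohorts at 3 weeks. At 8 weeks 5.55% of all genes tested were higher in mutants without overlap. P209L replicate 2 at 3 weeks, at 151 TPM, exceeded the P209L libraries given the control ASO at that age (136 to 147 TPM).

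The other phactrins differed less. With the control ASO, mutants and WT averaged 146 and 147 TPM for Phactr1 (chr13:42680374-43138526, log2 difference -0.00, SE 0.0624) and 11.5 and 11.3 TPM for Phactr2 (chr10:13207717-13474525, 0.02, SE 0.0692). For Phactr4 (chr4:132355922-132422446) they averaged 7.19 and 7.94 TPM (-0.12, SE 0.0769). In this comparison, 3 of the 9 genes were called higher (Ppp1r9b, Ppp1cb and Phactr3), where 2.55% of the 16556 genes tested were called higher. The same 3 did not overlap between genotypes, in the higher direction, in each of the 3 cohorts, where 0.991% of genes did so. As this comparison chose the family, nothing is read from these counts. A gene was called when its adjusted p in limma, Benjamini-Hochberg over all genes tested, was under 0.05.

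**Figure D3:**
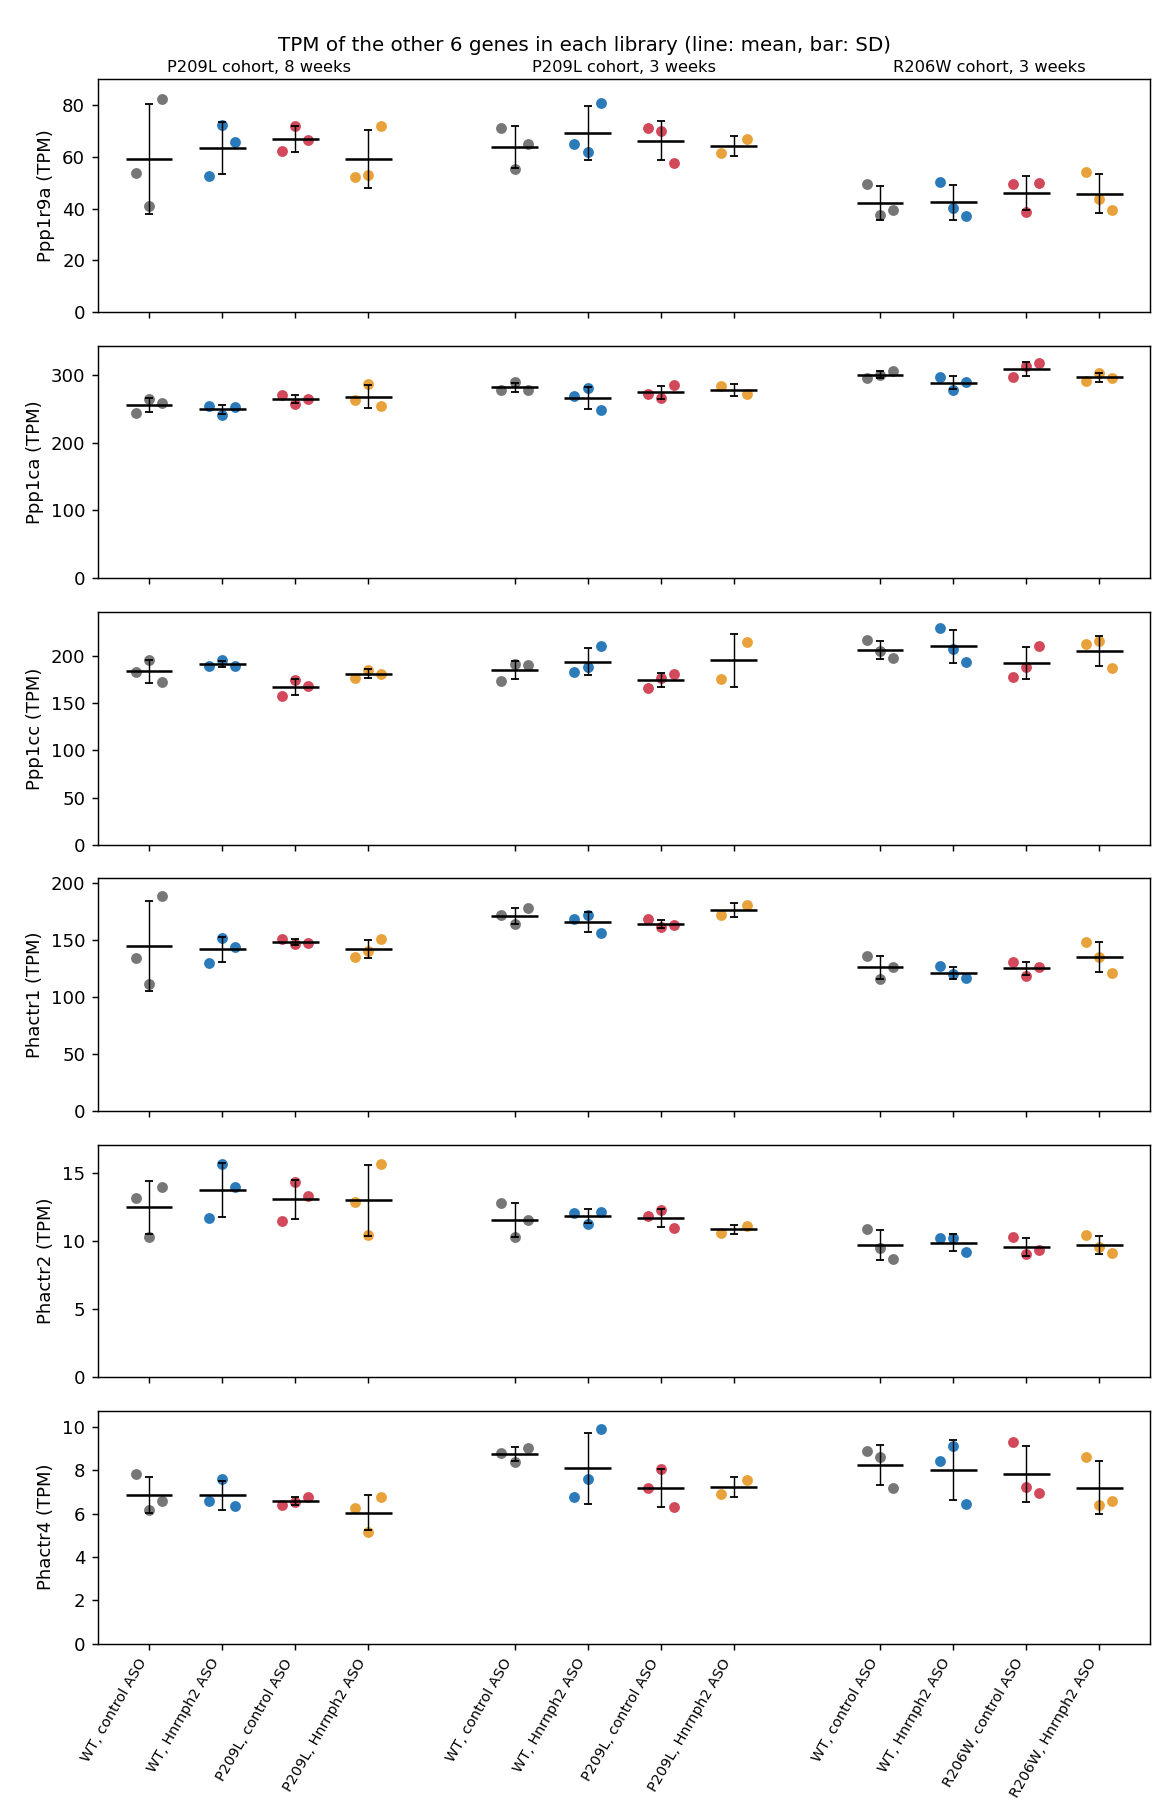
TPM (y axis, from 0) of Ppp1r9a, Ppp1ca, Ppp1cc, Phactr1, Phactr2 and Phactr4 in each library, by cohort, genotype and ASO; points are libraries, lines group means and bars SD. Ppp1r9a and Phactr1 are lower in all 4 groups of the R206W cohort, and both spread widely in WT with the control ASO at 8 weeks.

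Markers of other cells moved between the same groups. Of 12 cerebellar markers, 1 was higher (Slc1a6) and 4 were lower in mutants than in WT with the control ASO, among them Cbln3, from 106 to 72.1 TPM, and Gabra6, from 91.0 to 58.6 TPM. Their summed TPM ranged from 855 to 961 in P209L and 762 to 1060 in WT at 8 weeks, 827 to 976 and 915 to 1010 at 3 weeks, and 1020 to 1290 in R206W and 1210 to 1680 in WT. With the mean level of these markers as a covariate, the log2 fold changes were 1.09 for Ppp1r9b, 0.47 for Ppp1cb and 0.63 for Phactr3. Of 8 oligodendrocyte markers, 4 were lower, with summed TPM of 5980 to 7030 in P209L and 6470 to 8570 in WT at 8 weeks, 13300 to 13900 and 14700 to 16700 at 3 weeks, and 11700 to 15000 in R206W and 13900 to 14700 in WT. Their part in the result was not tested. Of 7 inhibitory interneuron markers, 1 was higher and 0 were lower, where 2.55% of all genes were called higher. The 1 was Slc32a1, the vesicular GABA transporter, at 137 against 116 TPM (0.25, limma adjusted p = 0.000702). The 7 markers had a median log2 difference of -0.07, beside 0.01 over all genes, with 4 at an unadjusted p under 0.05 in limma. Their summed TPM ranged from 1180 to 1240 in P209L and 1190 to 1220 in WT at 8 weeks, 1150 to 1210 and 1180 to 1250 at 3 weeks, and 1180 to 1270 in R206W and 1170 to 1210 in WT. The part of these neurons was not tested. Of 11 cortical excitatory markers, 0 were called in either direction by limma, with 3 at an unadjusted p under 0.05. With the cortical markers as a covariate, an alternative chosen after seeing the data, the log2 fold changes of Ppp1r9b, Ppp1cb and Phactr3 were 1.09, 0.44 and 0.59.

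Mutants and WT given the Hnrnph2 ASO share no library with the comparison that chose the family, so the genotype difference could be tested there. Mean Hnrnph2 itself was lower in these mutants than in these WT in each cohort, and its part was not tested. In limma, 0 of the 9 genes were called, with 3 at an unadjusted p under 0.05, where 0.67% of the 16556 genes tested were called. Ppp1r9b averaged 323 TPM in mutants and 298 TPM in WT, a log2 difference of 0.12 (95% interval 0.01 to 0.23, adjusted p = 0.358). Its value was 0.15 and 0.07 in P209L at 8 and 3 weeks and 0.13 in R206W, so all 3 cohorts leaned the same way by small amounts. Ppp1cb averaged 146 and 141 TPM, a difference of 0.05 (95% interval -0.05 to 0.15, adjusted p = 0.723). Phactr3 averaged 97.1 and 84.4 TPM, a difference of 0.18 (95% interval 0.04 to 0.31, adjusted p = 0.242).

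The Phactr3 difference was 0.35 (SE 0.176) in the P209L cohort at 3 weeks, 0.10 at 8 weeks and 0.08 in R206W. Without WT replicate 3 of that cohort it was 0.24 and passed the threshold (limma adjusted p = 0.0263). Without P209L replicate 1 it was 0.27 and also passed (limma adjusted p = 0.0181), with 1 library left in the group, assumed to vary like the others. Without both Phactr3-high libraries it was 0.14 and did not pass (limma adjusted p = 0.131). Ppp1ca, the third gene at an unadjusted p under 0.05, averaged 280 and 267 TPM (0.07, adjusted p = 0.318). The other 5 genes had log2 differences from -0.14 (Phactr4) to 0.08 (Phactr1). Of the markers, 2 of 12 for the cerebellum were lower in these mutants, Cbln3 (73.1 against 104 TPM) and Gabra6 (58.6 against 82.8 TPM), and their part was not tested.

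**Figure D4:**
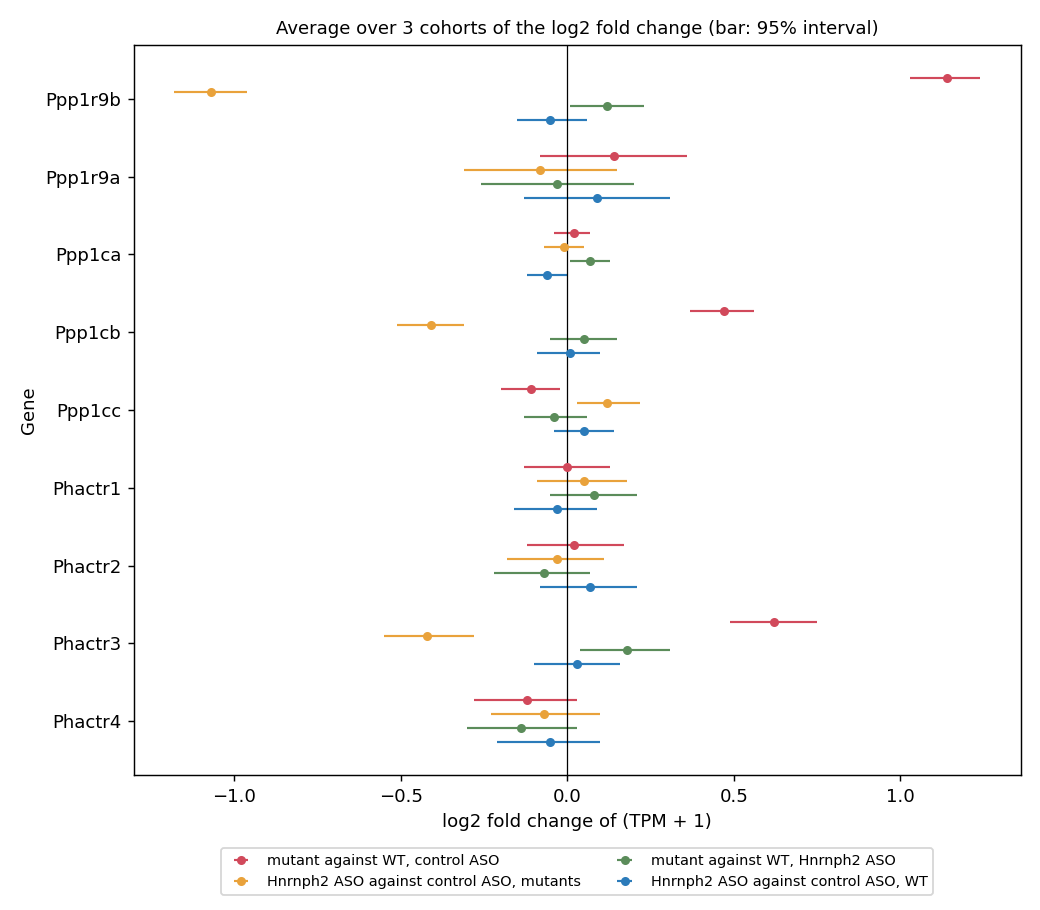
Average over the 3 cohorts of the log2 fold change of (TPM + 1) for each of the 9 genes (x axis), for mutant against WT with either ASO and for the Hnrnph2 ASO against the control ASO in mutants or WT; bars are 95% intervals. Ppp1r9b is at 1.14 for mutant against WT with the control ASO and at 0.12 with the Hnrnph2 ASO.

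Within the mutants, the Hnrnph2 ASO groups had lower Ppp1r9b, Ppp1cb and Phactr3 than the control ASO groups. This comparison uses the same mutant control libraries as the one that chose the family, so no p is given for Ppp1r9b and Phactr3. In each cohort the animal names in the titles share stems only between libraries of the same ASO, so the ASO and the stem, whose meaning is not stated, cannot be told apart in mutants or in WT. Ppp1r9b averaged 323 TPM with the Hnrnph2 ASO and 683 TPM with the control ASO, a log2 difference of -1.07 (SE 0.0529). The difference was -1.19 and -1.09 in P209L at 8 and 3 weeks and -0.92 in R206W. Phactr3 averaged 97.1 and 127 TPM, a difference of -0.42 (SE 0.0663), and -0.51 without both Phactr3-high libraries. Its cohort values were -0.60, -0.19 and -0.46, the smallest of them in the cohort that held those libraries.

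Ppp1cb fell from 194 to 146 TPM in this comparison (-0.41, SE 0.0484, limma adjusted p = 3.17e-06). Ppp1cb did not choose the family, but it stood high in these same mutant control libraries. Its p-values here are therefore not independent of the comparison that chose the family. Within cohorts it passed the test at 8 weeks (-0.51, adjusted p = 0.02), where 0.0787% of genes were called lower. It did not pass at 3 weeks in P209L (-0.39, adjusted p = 0.518) or R206W (-0.33, adjusted p = 0.0654), where 0.0908% and 0.097% of genes were called lower, and a difference between the cohorts was not tested. Of the 9 genes 3 were called lower, where 1.31% of genes were called lower, but 2 of them, Ppp1r9b and Phactr3, chose the family on these control libraries, so nothing is read from the count. Treated and control mutants did not overlap, in the lower direction, in all 3 cohorts for Ppp1r9b and Ppp1cb, where 0.791% of genes did so, and nothing is read from that count for the same reason. For Phactr3 they overlapped in P209L at 3 weeks. Ppp1cc averaged 194 TPM with the Hnrnph2 ASO and 178 TPM with the control ASO (0.12, limma adjusted p = 0.201). Without P209L replicate 1 at 3 weeks it was 0.17 and passed (limma adjusted p = 0.0443). The remaining 5 genes had log2 differences between -0.08 and 0.05.

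Markers of other cells also differed between treated and control mutants. The microglial complement gene C1qa rose from 56.8 to 79.5 TPM (0.47, limma adjusted p = 0.000898), the 1 called of 6 microglial markers. Slc1a6 fell from 44.7 to 32.3 TPM, the 1 called of 12 cerebellar markers. Of 7 interneuron markers, Slc32a1 fell from 137 to 119 TPM (-0.21, adjusted p = 0.00680) and Vip rose from 19.4 to 24.3 TPM (0.30, adjusted p = 0.0187). Slc1a6 and Slc32a1 stood higher than WT in these same control mutants, so their falls are not independent of that. Summed microglial markers ranged from 169 to 223 TPM with the Hnrnph2 ASO and 138 to 179 TPM with the control ASO at 8 weeks. They averaged 195 TPM (n = 2) and 153 TPM (n = 3) in P209L at 3 weeks, and ranged from 165 to 166 and 138 to 155 TPM in R206W. In limma, 0 of 8 oligodendrocyte markers were called (0 at an unadjusted p under 0.05) and 0 of 11 cortical markers (0 unadjusted). The part of these cells in the Ppp1cb difference was not tested, beyond the cerebellar and cortical covariates. With those it stayed between -0.42 and -0.40.

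In WT, the Hnrnph2 ASO was set against the control ASO. These WT control libraries also served in the comparison that chose the family, so Ppp1r9b and Phactr3 are described with no p. Ppp1r9b averaged 298 TPM with the Hnrnph2 ASO and 309 TPM with the control ASO (-0.05, SE 0.0508). Phactr3 averaged 84.4 and 81.9 TPM (0.03, SE 0.0637), and the difference was -0.03 without both Phactr3-high libraries. Ppp1cb averaged 141 and 140 TPM (0.01, 95% interval -0.09 to 0.10, limma adjusted p = 0.971). In limma 0 of the 9 genes were called, with 1 (Ppp1ca) at an unadjusted p under 0.05, where 0.187% of all genes were called. Whether the ASO difference itself differs between mutants and WT was not tested, since both comparisons use libraries of the choosing comparison.

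Treated mutants were also set against WT given the control ASO, the same WT libraries that served in the choosing comparison, so again no p is given for Ppp1r9b and Phactr3. Ppp1r9b differed by 0.07 (SE 0.0529). Phactr3 differed by 0.20 (SE 0.0663), by 0.30 without P209L replicate 1 with the Hnrnph2 ASO at 3 weeks and by 0.11 without both Phactr3-high libraries. Ppp1cb differed by 0.06 (95% interval -0.04 to 0.16, limma adjusted p = 0.566) and Phactr4 by -0.19 (limma adjusted p = 0.183). In limma 0 of the 9 genes were called, with 2 (Phactr3 and Phactr4) at an unadjusted p under 0.05, where 4.83% of all genes were called. Of the markers, 4 of 12 for the cerebellum were lower in the treated mutants, among them Cbln3 (73.1 against 106 TPM) and Gabra6 (58.6 against 91.0 TPM), and 4 of 8 for oligodendrocytes, among them Cldn11 (378 against 445 TPM). C1qa (79.5 against 59.5 TPM) was higher, as was Cux2, a gene of upper cortical layers (45.5 against 40.2 TPM). Their part was not tested, beyond the cerebellar and cortical covariates, with which 0 of the 9 genes were called.

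Age was compared within the P209L cohorts. Over their 4 groups, 4 of the 9 genes fell from 3 to 8 weeks and 1 rose, where 26.6% of all genes were called lower and 15.5% higher. With only 9 genes beside shares this large, nothing about the family is read from these counts. Age and collection cohort cannot be told apart here. Phactr3 averaged 114 TPM at 3 weeks and 83.5 TPM at 8 weeks (-0.43, SE 0.0569, adjusted p = 8.4e-07). Phactr1 went from 169 to 144 TPM (-0.24, adjusted p = 0.0011), Phactr4 from 7.81 to 6.58 TPM (-0.21, adjusted p = 0.0140) and Ppp1ca from 274 to 259 TPM (-0.09, adjusted p = 0.00801). Phactr2 rose from 11.5 to 13.1 TPM (0.16, adjusted p = 0.0331), so the 4 phactrins did not move as a group.

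Neither scaffold was called with age. Ppp1r9b averaged 443 TPM at 3 weeks and 431 TPM at 8 weeks (-0.06, limma adjusted p = 0.304), although without WT replicate 3 with the control ASO at 8 weeks it was -0.09 and passed (limma adjusted p = 0.0449). Ppp1r9a differed by -0.10 (0.15 with the cortical covariate, neither called), Ppp1cb by -0.07 and Ppp1cc by -0.05. By group, the Phactr3 difference was -0.26 in WT and -0.30 in P209L with the control ASO, neither of them called (adjusted p = 0.125 and 0.0807), where 8.66% and 6.23% of genes were called lower. It was -0.45 in WT and -0.71 in P209L with the Hnrnph2 ASO (limma adjusted p = 0.00684 and 0.000249), where 8.78% and 8.35% of genes were called lower. These are the 2 genotypes whose 3-week libraries include the Phactr3-high pair. Without both those libraries the average over groups was -0.32 (limma adjusted p = 6.86e-08).

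The smaller age calls depended on settings. Phactr2 lost its call without a filter (adjusted p = 0.0634), when only the groups being compared were fitted (adjusted p = 0.0608) or without both Phactr3-high libraries (adjusted p = 0.0521). Leaving out single libraries also ended it in several cases, with adjusted p from limma of up to 0.0706 without P209L replicate 3 with the Hnrnph2 ASO at 8 weeks. Ppp1ca lost its call after rescaling libraries by their median ratio (-0.05, adjusted p = 0.329). Phactr4 lost its call with the cortical covariate (-0.18, adjusted p = 0.0896) and without both Phactr3-high libraries (-0.16, adjusted p = 0.0753). Of the markers, 8 of 8 for oligodendrocytes were lower at 8 weeks, with summed TPM of 5980 to 8570 at 8 weeks and 12600 to 16700 at 3 weeks in these cohorts. Of 11 cortical excitatory markers, 5 were lower. Their part in the age differences was not tested, beyond the covariate above, with which Phactr3 differed by -0.38.

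**Figure D5:**
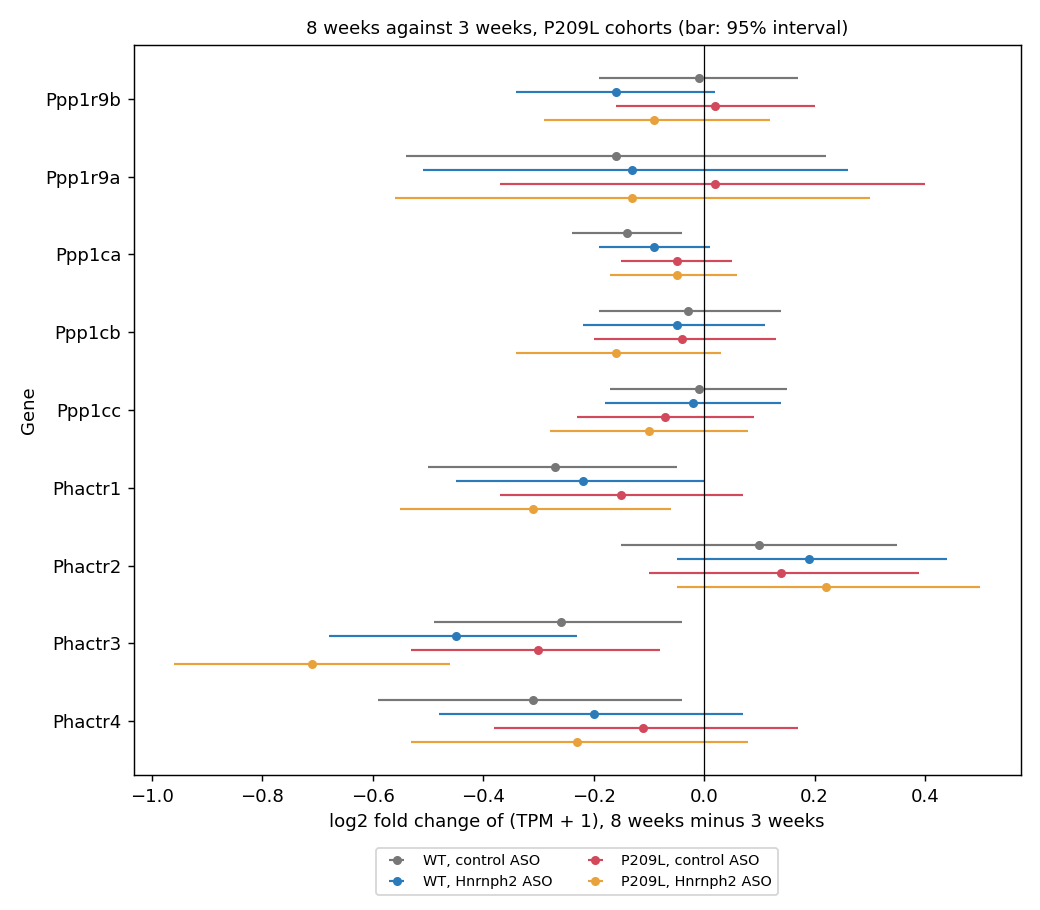
Log2 fold change of (TPM + 1) from 3 to 8 weeks (x axis, 8 weeks minus 3 weeks) for each of the 9 genes in the 4 groups of the P209L cohorts; points are limma estimates and bars 95% intervals. Phactr3 is negative in all 4 groups (-0.26 to -0.71), while the intervals of Ppp1r9b include 0 in every group.

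Differences between cohorts or ages of the genotype effect under the Hnrnph2 ASO, of the ASO effect in WT, and of the age effect between groups were tested by 6 interaction contrasts in limma. In each, 0 of the 9 genes were called and 0 had an unadjusted p under 0.05. These contrasts called 0% of the 16556 genes.

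The WT libraries at 3 weeks gave a baseline that differed between cohorts, a comparison added after the values had been seen. Mouse line, collection and library number series differ together between these cohorts and cannot be told apart here. In the R206W cohort, 4 genes were lower than in the P209L cohort and 1 was higher, where 16.2% and 10.9% of all genes were called in those directions. Ppp1r9b averaged 261 against 333 TPM (-0.35, limma adjusted p = 0.000681), Ppp1r9a 42.3 against 66.5 TPM (-0.64, adjusted p = 0.00184), Phactr1 124 against 169 TPM (-0.45, adjusted p = 0.000498) and Phactr2 9.80 against 11.7 TPM (-0.23, adjusted p = 0.0412). Ppp1ca was higher, at 294 against 273 TPM (0.10, adjusted p = 0.0280). Summed cerebellar markers ranged from 1210 to 1680 TPM in WT with the control ASO in the R206W cohort and from 915 to 1010 TPM in the P209L cohort, and striatal markers from 663 to 864 and 860 to 958 TPM. Their part in the baseline difference was not tested.

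Across the 12 group means of log2(TPM + 1), which share genotype, ASO and cohort, Ppp1r9b and Ppp1cb had a Pearson r of 0.986 and Ppp1r9b and Phactr3 one of 0.762. These means pool cohorts with different baselines. Over the 35 libraries, each taken as a deviation from its cohort's mean, the same pairs gave 0.944 and 0.894. Ppp1r9b and Phactr3 were both chosen for their difference in the same control-ASO libraries, so a high r between them was largely set by that choice. Ppp1r9a had its highest value with Phactr1 (0.866, and 0.756 within cohorts) and with Phactr2 (0.801, and 0.772 within cohorts). Ppp1r9b and Ppp1cc gave -0.795, and -0.526 within cohorts. Outside the family, the named genes most like Ppp1r9b over the group means were Brsk1 (0.980, and 0.970 within cohorts), Shank1 (0.980 and 0.964), Grk5 (0.973 and 0.828), Paip2b (0.972 and 0.934) and Ddn (0.966 and 0.967). Brsk1 is a kinase of neuronal polarity, Shank1 a postsynaptic scaffold and Ddn dendrin. Those most like Phactr3 were Svop (0.970 and 0.924), Ido2 (0.955 and 0.612) and Rimklb (0.954 and 0.807). These are descriptions over points that share libraries, with no test.

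The neighbours of the 2 genes had smaller differences. Samd14, which begins 2497 bases after Ppp1r9b and averaged 54.7 TPM, differed by 0.17 between mutants and WT with the control ASO (limma adjusted p = 0.0371), against 1.14 for Ppp1r9b. In mutants the Hnrnph2 ASO left Samd14 at -0.02 (adjusted p = 0.898), and with the Hnrnph2 ASO the genotype difference was 0.17 (adjusted p = 0.116). Zfp931, the gene before Phactr3, differed by -0.10 with the control ASO (limma adjusted p = 0.424). The other 2 neighbours, Sgca and Sycp2, averaged under 1 TPM and were not tested.

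Other genes of PP1 and actin biology were followed as lists. Of 31 tested among 37 other PP1 regulatory subunits, 1 was higher in mutants with the control ASO, Ppp1r21, an endosomal adaptor, at 85.1 against 66.4 TPM (0.36, limma adjusted p = 2.04e-05), where 2.55% of all genes were called higher. The list's median was -0.02, beside 0.01 over all genes. Ppp1r21 fell with the Hnrnph2 ASO in mutants (-0.33, adjusted p = 0.000141), as did Ppp1r14a, a PP1 inhibitor (-0.28, adjusted p = 0.0466), and these were the 2 called lower there, with 0 higher, where 1.31% of all genes were called lower. The Ppp1r14a call there was lost in 18 of 27 alternative settings, left-out libraries included (adjusted p up to 0.167). Ppp1r21 was high in the same mutant control libraries, so its fall is not independent of its higher level with the control ASO. With the Hnrnph2 ASO, 1 of the 31 was higher in mutants, the PP1 inhibitor gene Ppp1r14c (0.23, adjusted p = 0.0300), where 0.67% of all genes were called, and that call was lost in 11 of 27 settings (adjusted p up to 0.108). In WT 0 changed with the ASO, with 3 at an unadjusted p under 0.05 in limma. In treated mutants against control WT 1 was lower, Ppp1r14a (-0.39, adjusted p = 0.00283), where 4.83% of all genes were called. With age 4 rose and 12 fell, where 15.5% and 26.6% of all genes did, among them Ppp1r3c (0.40), a glycogen-targeting subunit, and Ppp1r14c (-0.78).

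Of 32 actin regulators of dendritic spines, 2 were higher in mutants with the control ASO and 0 lower, with a median of 0.03 beside 0.01 over all genes, where 2.55% of all genes were called higher. They were Ssh1, which encodes the cofilin phosphatase slingshot (8.75 against 7.39 TPM, 0.21, limma adjusted p = 0.00382), and Myh10, a non-muscle myosin heavy chain (138 against 126 TPM, 0.13, adjusted p = 0.0212, and up to 0.0561 in the 4 of 28 settings that lost the call). Both were lower with the Hnrnph2 ASO in mutants (Ssh1 -0.19, adjusted p = 0.0137; Myh10 -0.16, adjusted p = 0.00473), the only 2 of the 32 called there, where 1.31% of all genes were called lower. Both comparisons use the same mutant control libraries, so these falls are not independent of the higher levels with the control ASO. By limma, 0 of the 32 were called with the Hnrnph2 ASO between genotypes (2 at an unadjusted p under 0.05), 0 with the ASO in WT (1 unadjusted) and 0 in treated mutants against control WT (6 unadjusted). With age 24 of 32 fell and 0 rose, where 26.6% of all genes fell and 15.5% rose, with a list median of -0.16 beside -0.03 over all genes. Gsn, the actin-severing protein gelsolin, which oligodendrocytes also express, went from 176 to 81.1 TPM (-1.10), and Arpc5, a subunit of the Arp2/3 complex, from 103 to 74.5 TPM (-0.45).

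MRTF, SRF and their actin-linked targets, the transcriptional arm that monomeric actin controls, had 13 genes tested. With the control ASO, 1 was lower in mutants, Tagln (10.6 to 8.53 TPM, -0.28, limma adjusted p = 0.0370), and 0 were higher, where 1.73% of all genes were called lower. The Tagln call was lost in 12 of 28 alternative settings (adjusted p up to 0.0866). By limma, 0 were called between genotypes with the Hnrnph2 ASO (2 at an unadjusted p under 0.05), 0 with the ASO in WT (0 unadjusted) and 0 with the ASO in mutants (1 unadjusted). In treated mutants against control WT 1 was lower, Acta2 (-0.34, adjusted p = 0.0378), a call lost in 15 of 27 settings (adjusted p up to 0.188). With age 3 rose, where 15.5% of all genes did, Tagln (0.51), Acta2 (0.57) and Myl9 (0.42), all genes of smooth muscle, and 1 fell. Of 11 catalytic and scaffold subunits of other serine/threonine phosphatases, 0 were called by limma in the genotype and ASO comparisons, with 0 to 2 at an unadjusted p under 0.05 in each. With age 6 of them fell, where 26.6% of all genes did, and 0 rose, among them the PP2A scaffold Ppp2r1a (505 to 433 TPM, -0.22) and the calcineurin subunit Ppp3cb (200 to 172 TPM, -0.23).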

How the data were processed

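The authors deposited 1 table of TPM for 35 libraries (total RNA, stranded TruSeq kit, per the labels' protocols). Per the submitters' processing notes, tools were Trim Galore, STAR 2.7.1a, GATK 4.0.4.0 and RSEM with build mm10. Annotation, filters and strand setting are not given in the sources used here. The table had 55573 rows and 0 columns without a sample. Values were tested as log2(TPM + 1) in limma 3.58.1 (R 4.3.3; trend, two-sided, Benjamini-Hochberg within each contrast) where a gene's mean reached 1 TPM. One model over all 35 libraries, with a mean for each of the 12 groups, gave averages over cohorts and age; single-cohort values used only the libraries of that cohort. Every adjusted p comes from limma, with a call at under 0.05. SE and 95% intervals are limma's. All 9 genes were matched by symbol to a RefSeq table of the same build for coordinates. No sequence was used here.

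The members and lists were chosen with earlier results of these data known. All 9 members were followed in each comparison; of each list, up to 3 called genes with the smallest p could be named, and of pattern likeness the closest 5 (Ppp1r9b) and 3 (Phactr3). Tests were tried on simulated data first. Replicate numbers are shared between groups without a stated meaning. Same-numbered libraries deviated together (all 3 correlations over 0.1) only in treated mutants against control WT, at 8 weeks (0.123 to 0.24) and in the R206W cohort (0.104 to 0.204). Alternatives were other pseudocounts (0.1 and 5), filters, rescaling, a replicate block, only the compared groups, marker covariates and leaving out libraries.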

Additional observations from a re-analysis of the deposited data

How the results depend on the processing

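Of 1539 log2 differences of single genes recomputed under alternatives, 33 had the opposite sign to the reported value. In 0 of these was either value called, and their largest size was 0.15. The count of the 9 genes called was 3 or 4 for mutant against WT with the control ASO, 0 for mutant against WT with the Hnrnph2 ASO and for the ASO in WT, 3 for the ASO in mutants, 0 for treated mutants against control WT and 3 to 5 for age. The 4 for genotype with the control ASO came with the cortical covariate, which added Phactr1 (-0.11). The 3 for age came without both Phactr3-high libraries, an alternative chosen after seeing the data, as was the cortical covariate. Leaving out single libraries gave 3 to 3, 0 to 1, 0 to 0, 3 to 4, 0 to 1 and 4 to 5 in the same order. With the replicate block the counts were 3, 0, 0, 3, 0 and 5. The block within the 2 cohorts where numbers went together called 0 of 9 genes with 0 at an unadjusted p under 0.05, so it changed no call among the 9. Over all genes it called 1 at 8 weeks and 236 in the R206W cohort, against 1 and 3 without it. The R206W genotype difference with the Hnrnph2 ASO was also fitted with the stem of the animal name as a block, which called 0 genes of the 9 (Ppp1r9b 0.13, limma adjusted p = 0.936). Rescaling used factors of 0.912 to 1.08. TPM keeps no depth, so the precision of the low genes Phactr2 and Phactr4 is known only from the spread between 2 or 3 libraries a group.

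By setting, the values with the opposite sign were as follows. After rescaling, Ppp1cb for the ASO in WT was -0.02 and Ppp1ca in treated mutants against control WT was -0.01. With the cerebellar covariate, Ppp1ca was -0.01 between genotypes with the control ASO and -0.02 in treated mutants against control WT, where Phactr2 was 0.06. With the cortical covariate, the genotype difference with the control ASO was -0.02 for Ppp1r9a and -0.04 for Phactr2, and with the Hnrnph2 ASO it was -0.02 for Phactr1. With that covariate, treated mutants against control WT gave -0.08 for Ppp1r9a and -0.04 for Phactr1, and age gave 0.02 for Ppp1r9b and 0.15 for Ppp1r9a. Without both Phactr3-high libraries, the ASO in WT gave -0.04 for Ppp1cb and -0.03 for Phactr3, and treated mutants against control WT gave -0.04 for Ppp1cc. The cause was not tested. Leaving out single libraries took values across 0 as follows. For genotype with the control ASO, Phactr2 ran from -0.02 to 0.05. For genotype with the Hnrnph2 ASO, Ppp1r9a ran from -0.08 to 0.01 and Ppp1cc from -0.09 to 0.01. For the ASO in WT, Ppp1cb ran from -0.04 to 0.03, Phactr1 from -0.09 to 0.04 and Phactr3 from -0.03 to 0.06. For the ASO in mutants, Ppp1ca ran from -0.02 to 0.01 and Phactr2 from -0.08 to 0.01. For treated mutants against control WT, Ppp1r9a ran from -0.02 to 0.15, Ppp1ca from -0.01 to 0.02, Ppp1cc from -0.04 to 0.06, Phactr1 from -0.01 to 0.12 and Phactr2 from -0.05 to 0.04.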
